A study of Mus musculus with 6 samples.

Results

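The genes described here are 35 genes of glycolysis, of lactate and pyruvate handling and of the pentose phosphate pathway, read in mouse splenic CD4+ T cells with and without a MAPK13 inhibitor. They were chosen as a list of gene symbols, from the glucose transporters down to the enzymes that decide the fate of pyruvate, and all 35 were found among the 35602 genes of the count table. All 35 also passed the filter on low counts, which left 16269 genes tested. Glycolysis splits glucose into pyruvate and yields ATP and NADH, and lactate dehydrogenase turns pyruvate into lactate while restoring NAD+. The pentose phosphate pathway branches off at glucose 6-phosphate and supplies NADPH and ribose 5-phosphate for nucleotides. T cells stimulated through the T cell receptor and CD28 are known to raise glucose uptake and to release lactate even when oxygen is present.

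CD4+ T cells isolated from mouse spleen received anti-CD3/CD28 stimulation lasting 72 h, together with MAPK13-IN-1, a small-molecule inhibitor of the kinase MAPK13, or with its solvent DMSO, and each group was sequenced as 3 RNA libraries. The labels of replicates 2 and 3 give wild-type (WT) genotype, an inhibitor dose of 17.1 µM, and addition of inhibitor or DMSO after day 1 of stimulation, whereas the series design has the compound present for 72 h. The labels of the replicate 1 pair give neither dose nor genotype, and no label or series text ties a strain, sex or age to these libraries. A stranded mRNA kit served for replicate 1 and poly-T bead selection for replicates 2 and 3, so kit and replicate cannot be told apart.

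For replicates 2 and 3 the authors deposited read counts per gene, with totals of 26874805 and 28487403 in the DMSO libraries and 33854760 and 32617702 in the MAPK13-IN-1 libraries. Levels are given as CPM, counts set against the library total after scaling by edgeR's TMM method, with the value of replicate 2 before that of replicate 3. For the replicate 1 pair the deposited values are read as FPKM, fragments scaled to gene length and to sequencing depth. The authors do not name this unit. It is inferred, since the DMSO values divided by the CPM of the DMSO count libraries fall with gene length. That shows scaling by length but not which such unit was used. No depth is given for these values, and they were not tested. A gene is called where edgeR's quasi-likelihood method, 2 libraries against 2, gave an adjusted p under 0.05 (Benjamini-Hochberg over all 16269 genes). Differences between replicates exceeded counting noise, with a mean chi-square per gene of 2.98 for DMSO and 9.65 for MAPK13-IN-1. Nothing states that they were separate cultures or animals, so p-values measure the spread between these libraries, which may be technical.

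The cell type label was checked against markers, whose calls are to be read against the 32.3% of all genes tested that were called lower and the 31.5% called higher. In the count libraries, 8 of 9 listed CD4 T cell markers were in the table, and their levels summed to 809 and 817 CPM per kb of transcript with DMSO and to 390.3 and 446 CPM per kb with MAPK13-IN-1. Of these 8, 7 fell and *Cd4* itself was at 275 and 276 CPM with DMSO and 267 and 283 CPM with MAPK13-IN-1. The most abundant per length was *Cd5*, a T cell surface receptor, with DMSO, and *Cd4* with MAPK13-IN-1. The 12 B cell markers were all present, none at 0 counts, and summed to 682 and 668 CPM per kb with DMSO and to 793 and 802 CPM per kb with MAPK13-IN-1. Of them, 7 were called higher and 2 lower, or 4 lower without MAPK13-IN-1 replicate 3. Without DMSO replicate 2, or without DMSO replicate 3, 5 were called higher, with *Cd79b* not called in either case. Past an absolute log2 fold change of 1, 2 B cell markers were called higher and 1 lower (13.0% and 10.4% of all genes tested). With the biological coefficient of variation set at 0.4, 0 were called higher and 1 lower (4.79% and 2.85% of all genes). *Pax5*, the B lineage factor, was the most abundant per length in 3 of the count libraries, with 178 and 168 CPM with DMSO and 263 and 271 CPM with MAPK13-IN-1, and *Cd79b*, part of the B cell receptor, in DMSO replicate 3. The B cell sum was below the T cell sum with DMSO and above it with MAPK13-IN-1, so in replicates 2 and 3 the data go against a label of CD4+ T cells alone, although the study's methods name a kit for isolating mouse CD4 T cells from spleen. In the replicate 1 pair the same lists summed to 1265 and 1127 FPKM for CD4 T cells and to 52.2 and 47.5 FPKM for B cells, with DMSO and MAPK13-IN-1 respectively. There the most abundant were *Cd5* with DMSO, *Cd2* with MAPK13-IN-1 and *Cd79b* in both.

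Markers of other cells were scarcer in the count libraries, and calls are counted here only over markers with at least 10 counts in every library, since a gene that entered through 1 group had to differ. With that filter 33.3% of all genes tested were called lower and 32.5% higher. Macrophage and monocyte markers, led by *Ctss* (cathepsin S, which B cells also express), summed to 71.8 and 69.3 CPM per kb with DMSO and to 129 and 117 CPM per kb with MAPK13-IN-1. All 6 such markers were called higher. *C1qa*, *C1qc* and *Mrc1* were at 0 counts in both DMSO libraries. Erythroid markers, led by the globin *Hbb-bs*, summed to 9.77 and 9.13 CPM per kb with DMSO and to 136 and 96.5 CPM per kb with MAPK13-IN-1, with 5 of 6 such markers called higher. Dendritic cell markers summed to 39.2 and 39.8 CPM per kb with DMSO, led by *Batf3*, and to 24.5 and 22.4 CPM per kb with MAPK13-IN-1, led by *Zbtb46*, with *Cd209a* at 0 counts in all 4 libraries. Of 4 such markers, 3 were called higher and *Batf3* lower, with 25.8 and 26.1 CPM with DMSO and 2.14 and 3.54 CPM with MAPK13-IN-1 (log2 fold change −3.19). CD8 T and NK cell markers, led by *Cd8b1*, summed to 6.79 to 8.80 CPM per kb, with 2 of 4 such markers called lower, 1 higher (*Klrk1*) and *Klra8* at 0 counts throughout. *Klrk1* was not called without DMSO replicate 3 or with DESeq2, nor was *Cd8b1* with DESeq2. Platelet markers summed to 2.72 to 6.05 CPM per kb, led by *Itga2b*, with 1 such marker, called higher, and *Ppbp* at 0 counts throughout. Neutrophil markers summed to 0.441 to 1.00 CPM per kb, with *S100a9* at 0 counts throughout, *Camp*, *Csf3r*, *Elane*, *Ly6g*, *Ngp*, *Retnlg* and *S100a8* at 0 counts in some, no such marker to count, and *Ly6g*, *S100a8* or *Mpo* the most abundant depending on the library. Further markers at 0 counts in some of these libraries were *Ncr1*, *Klre1* and *Klrb1c* (NK cells), *Fcgr1* and *C1qb* (macrophages), *Clec9a*, *Siglech* and *Xcr1* (dendritic cells), *Epb42* and *Slc4a1* (erythroid cells) and *Pf4* (platelets), and 3 counts correspond to 0.0886 to 0.112 CPM. In the replicate 1 pair the dendritic cell sum was 29.9 FPKM in DMSO, 50.5 FPKM in MAPK13-IN-1, and *Batf3* was at 26.6 and 35.9 FPKM. The CD8 T and NK cell sum there was 4.57 FPKM in DMSO, 13.8 FPKM in MAPK13-IN-1, and the neutrophil sum 0.763 and 0.468 FPKM. These directions are opposite to those in the count libraries. Macrophage, erythroid and platelet sums were higher with the inhibitor in both library sets. In bulk RNA, fewer cells of a type and less RNA per cell cannot be told apart.

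Genes of glucose breakdown were on balance lower with MAPK13-IN-1, by modest amounts. Of the 35 genes, 17 fell (48.6%, against 32.3% of all genes tested), 6 rose (17.1%, against 31.5%) and 12 were not called. With the libraries scaled by their totals alone, 14 fell (40%, against 26.4% of all genes with that scaling) and 10 rose (28.6%, against 38.0%). With the biological coefficient of variation set at 0.4, far above the 0.0659 estimated from these libraries, none of the 35 was called, at an adjusted or an unadjusted p. None of the 35 passed an absolute log2 fold change over 1 in edgeR's test, at an adjusted or an unadjusted p under 0.05, nor in DESeq2 or limma-voom. Of all genes tested, 10.4% were called with a log2 fold change under −1 and 13.0% with one over 1. Without MAPK13-IN-1 replicate 3, 1 of the 35 passed it (*Slc16a3*, −1.06), and with library totals 1 (*Pdk1*, 1.01). The median log2 fold change of the 35 was −0.14 against 0.012 for all genes tested, and their median absolute log2 fold change was 0.29 against 0.52. Scaling by library totals moved the median of all genes to 0.14 and that of the 35 genes to −0.013. The median of the 35 was −0.058 with upper-quartile scaling and −0.21 without DMSO replicate 2. The 35 genes took 4.63% (95% Wilson interval 4.62 to 4.63, counting error only) and 4.53% (4.52 to 4.53) of all counts with DMSO and 3.96% (3.95 to 3.97) and 4.13% (4.12 to 4.14) with MAPK13-IN-1. In the same libraries most T cell markers, though not *Cd4*, were lower and most B cell, macrophage and erythroid markers higher. The part of these markers' cells in the differences was not tested.

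**Figure D1:**
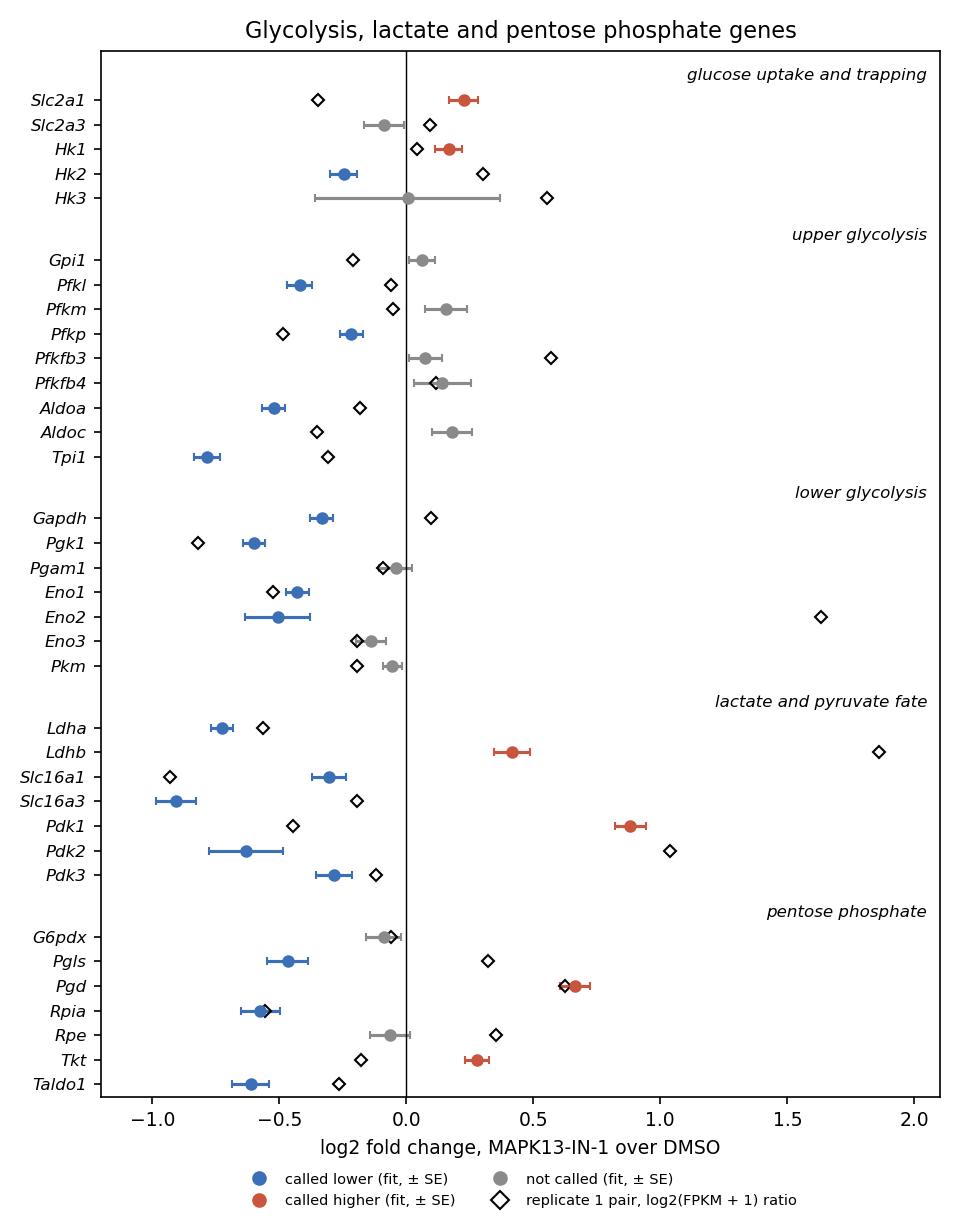
Log2 fold change of MAPK13-IN-1 over DMSO for each of the 35 genes, grouped by role. Filled points with bars are edgeR estimates ± SE from replicates 2 and 3, coloured by call, and open diamonds are log2(FPKM + 1) ratios of the replicate 1 pair, which has no error. The estimates lie between −0.91 (*Slc16a3*) and 0.88 (*Pdk1*), and the diamonds of *Hk2*, *Eno2*, *Pdk1* and *Pdk2*, among others, lie on the other side of 0 from their estimates.

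The first steps bring glucose into the cell and trap it by phosphorylation. *Slc2a1* encodes GLUT1, the main glucose transporter of activated T cells. *Slc2a1* measured 587 and 562 CPM with DMSO and 642 and 700.2 CPM with MAPK13-IN-1, with both MAPK13-IN-1 libraries above both DMSO libraries (log2 fold change 0.23 ± 0.056 (SE), edgeR adjusted p = 0.00507). *Slc2a3* encodes GLUT3, a transporter of high glucose affinity. *Slc2a3* measured 539.7 and 464 CPM with DMSO and 444 and 501 CPM with MAPK13-IN-1, and the groups overlapped (log2 fold change −0.088 ± 0.078 (SE), edgeR adjusted p = 0.341). Without MAPK13-IN-1 replicate 3 it was called lower (−0.18 on the log2 scale). Per length, *Slc2a1* made up 56.9% and 59.5% of the summed level of both transporters with DMSO and 63.7% and 62.9% with MAPK13-IN-1. Hexokinases then convert glucose to glucose 6-phosphate. The broadly expressed *Hk1* measured 813 and 786 CPM with DMSO and 865 and 929 CPM with MAPK13-IN-1 and was slightly higher with the inhibitor (log2 fold change 0.17 ± 0.052 (SE), edgeR adjusted p = 0.0166). *Hk2*, the inducible isozyme, measured 465 and 470.0 CPM with DMSO and 407 and 381 CPM with MAPK13-IN-1 and fell, with no overlap between groups (log2 fold change −0.25 ± 0.053 (SE), edgeR adjusted p = 0.00212). The share of *Hk1* in the summed per-length level of the 3 hexokinase genes was 65.9% and 64.9% with DMSO and 70.2% and 72.9% with MAPK13-IN-1, nearly all of the remainder being *Hk2*. *Hk3*, a hexokinase of myeloid cells, lay at 0.698 to 0.993 CPM in all 4 libraries.

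Without DMSO replicate 3 neither *Slc2a1* nor *Hk1* was called (adjusted p of 0.0830 and 0.208 in edgeR's test), and without DMSO replicate 2 *Hk1* was not called (0.0847). Without MAPK13-IN-1 replicate 3 the log2 fold change of *Hk1* was 0.11. The fall of *Hk2* was not called with library totals (log2 fold change −0.12, adjusted p = 0.0693 in edgeR's test). In the replicate 1 pair, *Slc2a1* was at 31.9 FPKM in DMSO, 24.8 FPKM in MAPK13-IN-1 and *Slc2a3* at 5.36 FPKM in DMSO, 5.79 FPKM in MAPK13-IN-1. The hexokinases were there at 37.5 FPKM in DMSO, 38.6 FPKM in MAPK13-IN-1 for *Hk1* and 24.0 FPKM in DMSO, 29.8 FPKM in MAPK13-IN-1 for *Hk2*. *Slc2a1* and *Hk2* thus differed from DMSO in opposite directions in the replicate 1 pair and in the other libraries. Of these 5 uptake genes, 1 fell, 2 rose and 2 were not called (20% lower and 40% higher, against 32.3% and 31.5% of all genes tested). With library totals none fell and 2 rose, against 26.4% lower and 38.0% higher of all genes. Without DMSO replicate 3 the rises of *Slc2a1* and *Hk1* were not called, as given above, and smaller shares of all genes were called.

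Upper glycolysis takes glucose 6-phosphate to triose phosphates. Of its 9 genes 4 fell, none rose in edgeR's test (1 at an unadjusted p under 0.05, none in DESeq2 or limma-voom) and 5 were not called (44.4% lower and 0% higher, against 32.3% and 31.5% of all genes tested), though with library totals 3 fell and 4 rose (26.4% and 38.0% of all genes with that scaling). With upper-quartile scaling 4 fell and 3 rose (28.5% and 35.8% of all genes), and without MAPK13-IN-1 replicate 2 also 4 and 3 (31.7% and 29.8%). *Tpi1*, the triose phosphate isomerase that interconverts both triose phosphates, had the largest fall of the group. *Tpi1* measured 2029.9 and 1982 CPM with DMSO and 1119 and 1209 CPM with MAPK13-IN-1, with both MAPK13-IN-1 libraries below both DMSO libraries (log2 fold change −0.79 ± 0.050 (SE), edgeR adjusted p = 5.65e-07). *Aldoa*, the aldolase that splits fructose 1,6-bisphosphate, measured 4333 and 4319 CPM with DMSO and 2902 and 3125 CPM with MAPK13-IN-1 (log2 fold change −0.52 ± 0.046 (SE), edgeR adjusted p = 4.82e-06). The brain-type aldolase *Aldoc* was at 156 and 139 CPM with DMSO and 156 and 179 CPM with MAPK13-IN-1, with overlapping groups and no call, but it was called higher with upper-quartile scaling, with library totals, with no filter, with at least 10 counts in every library, with the replicate block, without DMSO replicate 2 and without MAPK13-IN-1 replicate 2. Phosphofructokinase catalyses the committed step. The liver-type subunit *Pfkl* measured 578 and 564 CPM with DMSO and 430.1 and 423 CPM with MAPK13-IN-1 and the platelet-type *Pfkp* 1588 and 1551 CPM with DMSO and 1368 and 1334 CPM with MAPK13-IN-1. Both fell without overlap, with log2 fold changes of −0.42 and −0.22 and edgeR adjusted p of 3.38e-05 and 0.00163, the second not called with library totals (adjusted p = 0.0926 in edgeR's test). The muscle-type *Pfkm* was at 34.6 and 37.4 CPM with DMSO and 38.9 and 41.3 CPM with MAPK13-IN-1, without a call, although it was called higher with library totals, with upper-quartile scaling, with at least 10 counts in every library and without MAPK13-IN-1 replicate 2. Per length, *Pfkp* made up 73.5% to 75.6% of the phosphofructokinase level in the 4 count libraries.

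The bifunctional enzymes PFKFB3 and PFKFB4 set the level of fructose 2,6-bisphosphate, an activator of phosphofructokinase. *Pfkfb3* measured 139.9 and 126 CPM with DMSO and 141 and 139 CPM with MAPK13-IN-1, with overlapping groups. *Pfkfb4* lay lower, at 14.2 and 13.1 CPM with DMSO and 14.5 and 15.6 CPM with MAPK13-IN-1, and neither was called, though with library totals *Pfkfb3* was called higher (log2 fold change 0.20). *Gpi1*, the isomerase between both hexose phosphates, stood at 2185 to 2431 CPM over the 4 libraries and was not called, though it was called higher with upper-quartile scaling, with library totals and without MAPK13-IN-1 replicate 2. In the replicate 1 pair *Pfkp* was at 84.4 FPKM in DMSO, 60.1 FPKM in MAPK13-IN-1, *Aldoa* at 554 FPKM in DMSO, 489 FPKM in MAPK13-IN-1 and *Tpi1* at 183 FPKM in DMSO, 147 FPKM in MAPK13-IN-1, all lower with the inhibitor. *Pfkfb3* stood there at 8.40 FPKM in DMSO, 12.9 FPKM in MAPK13-IN-1, and *Pfkfb4* at 1.74 FPKM in DMSO, 1.97 FPKM in MAPK13-IN-1. *Pfkl* was there at 21.6 FPKM in DMSO, 20.7 FPKM in MAPK13-IN-1, and *Pfkm* at 6.42 FPKM in DMSO, 6.17 FPKM in MAPK13-IN-1.

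Lower glycolysis, from glyceraldehyde 3-phosphate to pyruvate, held the most abundant transcripts of the pathway. Of its 7 genes, 4 fell, none rose in edgeR's test (also none at an unadjusted p under 0.05, in DESeq2 or in limma-voom) and 3 were not called (57.1% lower and 0% higher, against 32.3% and 31.5% of all genes tested). More of the 7 were called lower without MAPK13-IN-1 replicate 2 or without MAPK13-IN-1 replicate 3. The shares of all genes called then stayed near those given. *Gapdh* measured 9223 and 9111 CPM with DMSO and 6996 and 7554 CPM with MAPK13-IN-1, and this NADH-forming dehydrogenase was lower in both MAPK13-IN-1 libraries (log2 fold change −0.33 ± 0.044 (SE), edgeR adjusted p = 8.70e-05). *Pgk1*, the first enzyme of the pathway to yield ATP, had the largest fall of the 7 except without MAPK13-IN-1 replicate 3, where *Eno2* had it. *Pgk1* measured 3949 and 3884 CPM with DMSO and 2525 and 2649 CPM with MAPK13-IN-1 (log2 fold change −0.60 ± 0.043 (SE), edgeR adjusted p = 1.25e-06). *Eno1*, the main enolase of lymphocytes, measured 5928 and 6066 CPM with DMSO and 4289.8 and 4619 CPM with MAPK13-IN-1 (log2 fold change −0.43 ± 0.046 (SE), edgeR adjusted p = 1.77e-05). Its near-identical copy *Eno1b* was at 76.6 and 89.6 CPM with DMSO and 47.0 and 51.3 CPM with MAPK13-IN-1, and reads could have been split between both genes by the authors' counting, so their separate values are uncertain. Both fell. *Eno2*, the neuronal enolase, was at 14.6 to 24.6 CPM and fell (−0.51 on the log2 scale, −0.32 without MAPK13-IN-1 replicate 2), and *Eno3*, the muscle enolase, was at 109 to 124 CPM and not called.

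*Pkm*, which encodes the pyruvate kinase of the last step, measured 8251 and 7999 CPM with DMSO and 7778 and 7868 CPM with MAPK13-IN-1. Its groups did not overlap but the difference was not called (log2 fold change −0.055 ± 0.039 (SE), edgeR adjusted p = 0.236), and its sign turned with upper-quartile scaling and with library totals. *Pgam1*, the mutase upstream of enolase, lay at 923 to 1065 CPM with overlapping groups and was not called. Without MAPK13-IN-1 replicate 3, *Pkm*, *Pgam1* and *Eno3* were all called lower, with log2 fold changes of −0.070, −0.16 and −0.15, and *Eno3* was also called lower without MAPK13-IN-1 replicate 2 (−0.13, edgeR adjusted p = 0.0357). Per length in the DMSO libraries, the order among the 35 genes began with *Gapdh* at 7245 and 7157 CPM per kb, *Pkm* at 3689 and 3576, *Eno1* at 3018 and 3088, *Aldoa* at 2917 and 2908, *Ldha* at 2587 and 2512, *Pgk1* at 2164 and 2128 and *Tpi1* at 1685 and 1645. In the replicate 1 pair *Pgk1* was at 539.6 FPKM in DMSO, 306 FPKM in MAPK13-IN-1, *Eno1* at 517 FPKM in DMSO, 359 FPKM in MAPK13-IN-1 and *Pkm* at 607 FPKM in DMSO, 530.1 FPKM in MAPK13-IN-1. *Eno2*, at 3.63 FPKM in DMSO, 13.4 FPKM in MAPK13-IN-1, and *Gapdh*, at 33.3 FPKM in DMSO, 35.7 FPKM in MAPK13-IN-1, were higher with the inhibitor there. This level placed *Gapdh* 2016th among genes by FPKM in DMSO replicate 1, against 2nd by CPM per kb in the other DMSO libraries. How the authors treated reads shared with copies of *Gapdh* in either table is not given in the sources used here.

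**Figure D2:**
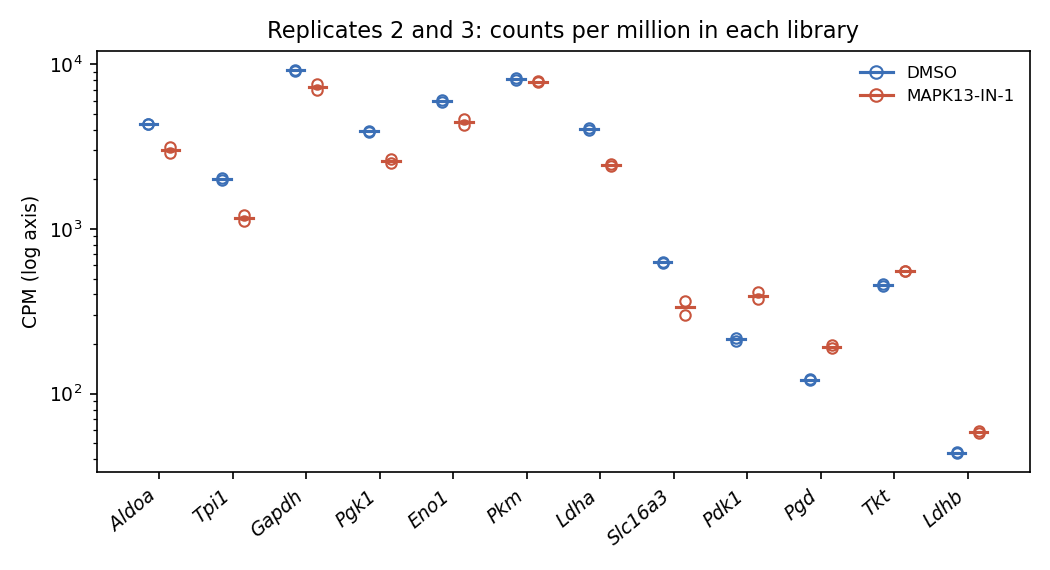
CPM in each count library on a log axis for 12 of the genes, with open circles for the libraries (2 per group) and short lines for the group means. *Aldoa*, *Tpi1*, *Gapdh*, *Pgk1*, *Eno1*, *Ldha* and *Slc16a3* lie lower with MAPK13-IN-1, *Pdk1*, *Pgd*, *Tkt* and *Ldhb* lie higher, and *Pkm* stays between 7778 and 8251 CPM.

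The genes that direct pyruvate to lactate or to mitochondria all 7 passed the test, 5 lower and 2 higher (71.4% lower and 28.6% higher, against 32.3% and 31.5% of all genes tested). With library totals 4 were lower and 2 higher, against 26.4% lower and 38.0% higher of all genes. Without DMSO replicate 2 *Pdk3* was not called, and smaller shares of all genes were called. *Ldha* encodes the lactate dehydrogenase subunit that predominates in cells making lactate. *Ldha* measured 4107 and 3989 CPM with DMSO and 2403 and 2488 CPM with MAPK13-IN-1, lower in both MAPK13-IN-1 libraries (log2 fold change −0.73 ± 0.043 (SE), edgeR adjusted p = 3.35e-07). *Ldhb*, the subunit typical of lactate-consuming tissue, moved the other way. *Ldhb* measured 43.7 and 44.2 CPM with DMSO and 57.9 and 59.4 CPM with MAPK13-IN-1, so that every MAPK13-IN-1 library lay above every DMSO library (log2 fold change 0.42 ± 0.071 (SE), edgeR adjusted p = 4.54e-04). The share of *Ldhb* in the per-length sum of both subunits was 1.28% and 1.33% with DMSO and 2.85% and 2.82% with MAPK13-IN-1, and *Ldha* thus remained the bulk of the lactate dehydrogenase transcript.

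*Slc16a3* encodes MCT4, a proton-coupled exporter of lactate, and had, with TMM scaling, the largest change of the 35 genes. The change of *Pdk1* was larger in size with RLE scaling, upper-quartile scaling, library totals, at least 10 counts in every library and without MAPK13-IN-1 replicate 2. *Slc16a3* measured 632 and 621 CPM with DMSO and 302 and 366 CPM with MAPK13-IN-1, with both MAPK13-IN-1 libraries below both DMSO libraries (log2 fold change −0.91 ± 0.078 (SE), edgeR adjusted p = 4.09e-06). Even so, 28.5% of all genes tested had a larger absolute log2 fold change. *Slc16a1*, which encodes the related transporter MCT1, measured 115 and 111 CPM with DMSO and 95.5 and 87.5 CPM with MAPK13-IN-1 and fell less (log2 fold change −0.30 ± 0.067 (SE), edgeR adjusted p = 0.00241). The share of *Slc16a1* in their per-length sum was 8.94% and 8.77% with DMSO and 14.6% and 11.4% with MAPK13-IN-1. *Bsg*, the chaperone (basigin) that carries both to the membrane, was at 1025 and 975 CPM with DMSO and 883 and 991 CPM with MAPK13-IN-1 and was not called, except without MAPK13-IN-1 replicate 3, where it fell (log2 fold change −0.19, edgeR adjusted p = 5.79e-06).

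Pyruvate dehydrogenase kinases block the entry of pyruvate into the citrate cycle. *Pdk1* measured 218 and 209.8 CPM with DMSO and 413 and 375 CPM with MAPK13-IN-1, the largest rise among the 35 genes (log2 fold change 0.88 ± 0.061 (SE), edgeR adjusted p = 9.13e-07). *Pdk2* went down from a low level, with 9.89 and 8.60 CPM with DMSO and 5.89 and 6.05 CPM with MAPK13-IN-1, and *Pdk3* also fell, from 76.6 ± 4.72 to 62.9 ± 1.16 CPM (mean ± SD, n = 2). Their log2 fold changes were −0.63 and −0.29, with edgeR adjusted p of 0.00317 and 0.00481. The call of *Pdk3* was lost without DMSO replicate 2 (0.0882 in edgeR's test) and with library totals (0.0718). *Pdk1* accounted for 49.9% and 51.3% of the per-length sum of the 3 kinase genes with DMSO and for 70.9% and 69.3% with MAPK13-IN-1.

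The replicate 1 pair shared part of this pattern. *Ldha* was at 642 FPKM in DMSO, 434 FPKM in MAPK13-IN-1, and *Ldhb* at 16.0 FPKM in DMSO, 60.8 FPKM in MAPK13-IN-1, which put the share of *Ldhb* at 2.43% and 12.3%. *Slc16a3* stood at 14.6 FPKM in DMSO, 12.7 FPKM in MAPK13-IN-1, and *Slc16a1* at 22.9 FPKM in DMSO, 11.6 FPKM in MAPK13-IN-1. *Pdk1* went against the other libraries, at 6.23 FPKM in DMSO, 4.30 FPKM in MAPK13-IN-1, and its share of the kinase sum was 24.2% with DMSO and 17.0% with MAPK13-IN-1. *Pdk2* also went against them, at 1.85 FPKM in DMSO, 4.85 FPKM in MAPK13-IN-1. Levels too differed between the library sets, since *Slc16a1* made up 61.0% and 47.8% of the MCT sum in the replicate 1 pair.

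**Figure D3:**
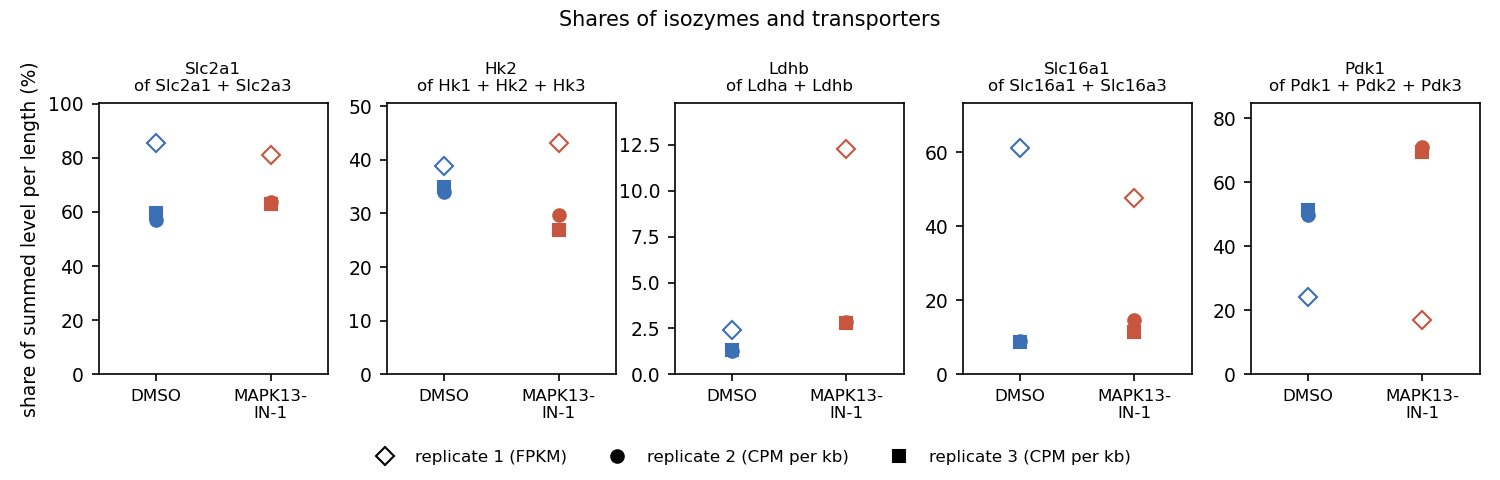
Share, in percent, of 1 gene in the summed per-length level of its family, for each library (DMSO in blue, MAPK13-IN-1 in red; open diamonds are replicate 1 in FPKM, filled circles and squares are replicates 2 and 3 in CPM per kb). The share of *Ldhb* is higher in both MAPK13-IN-1 count libraries than in both DMSO ones, and higher with MAPK13-IN-1 in replicate 1, while those of *Slc2a1*, *Hk2*, *Slc16a1* and *Pdk1* go one way in replicates 2 and 3 and the other way in replicate 1.

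In the pentose phosphate pathway 3 of 7 genes fell, 2 rose and 2 were not called, shares (42.9% lower and 28.6% higher) near those of all genes tested (32.3% and 31.5%). *G6pdx* encodes glucose 6-phosphate dehydrogenase, the entry step that makes NADPH. *G6pdx* measured 76.4 and 74.4 CPM with DMSO and 68.2 and 73.6 CPM with MAPK13-IN-1, with no call (log2 fold change −0.088 ± 0.068 (SE), edgeR adjusted p = 0.280), and the sign turned with library totals, while without MAPK13-IN-1 replicate 3 it was called lower (−0.15 on the log2 scale). *Pgd*, the next enzyme that makes NADPH, rose. *Pgd* measured 123 and 120.4 CPM with DMSO and 197 and 189 CPM with MAPK13-IN-1, with the groups well apart (log2 fold change 0.66 ± 0.057 (SE), edgeR adjusted p = 4.11e-06). *Pgls*, the lactonase between these dehydrogenases, was at 74.5 and 80.6 CPM with DMSO and fell to 52.9 and 59.4 CPM, so that neighbouring oxidative steps differed in direction.

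In the non-oxidative part, transketolase and transaldolase trade carbon units between sugars. *Tkt* measured 449 and 462 CPM with DMSO and 551 and 553 CPM with MAPK13-IN-1, and *Tkt* (transketolase) rose (log2 fold change 0.28 ± 0.049 (SE), edgeR adjusted p = 5.64e-04). *Taldo1* (transaldolase) measured 99.9 and 106 CPM with DMSO and 71.1 and 63.9 CPM with MAPK13-IN-1 and fell (log2 fold change −0.61 ± 0.073 (SE), edgeR adjusted p = 3.78e-05). *Rpia*, the isomerase that forms ribose 5-phosphate, measured 46.1 and 47.2 CPM with DMSO and 31.2 and 31.5 CPM with MAPK13-IN-1 and fell (log2 fold change −0.57 ± 0.077 (SE), edgeR adjusted p = 8.89e-05). *Rpe*, the epimerase of the same pool, was at 35.6 to 38.0 CPM without a call. In the replicate 1 pair *Pgd* stood at 32.7 FPKM in DMSO, 51.0 FPKM in MAPK13-IN-1, *Rpia* at 29.3 FPKM in DMSO, 19.6 FPKM in MAPK13-IN-1 and *Taldo1* at 77.9 FPKM in DMSO, 64.7 FPKM in MAPK13-IN-1, the same directions as in the count libraries. *Tkt*, at 93.4 FPKM in DMSO, 82.5 FPKM in MAPK13-IN-1, and *Pgls*, at 54.2 FPKM in DMSO, 68.0 FPKM in MAPK13-IN-1, went in the opposite direction there. *G6pdx*, which was not called in the count libraries, stood at 44.5 FPKM in DMSO, 42.7 FPKM in MAPK13-IN-1. These 7 genes, of which *Tkt* was the most abundant, summed to 908 and 927 CPM with DMSO and to 1008 and 1007 CPM with MAPK13-IN-1. The lower glycolysis genes summed to 28528 and 28221 CPM with DMSO and to 22636 and 23886 CPM with MAPK13-IN-1. In the replicate 1 pair the pentose phosphate sum was 349 FPKM in DMSO, 351 FPKM in MAPK13-IN-1. The lower glycolysis sum there was 1823 FPKM in DMSO, 1358 FPKM in MAPK13-IN-1.

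Over the whole list, more genes were lower than higher with the inhibitor in the replicate 1 pair, and the 35 genes made up 0.992% of the summed FPKM with DMSO and 0.828% with MAPK13-IN-1. Of the 34 genes with at least 1 FPKM in either library (all but *Hk3*), 22 had a ratio below 0 on the log2(FPKM + 1) scale and 12 above. The median was −0.15, against 0.079 for all 11510 such genes. This scale understates the change of low genes. Past 1.5-fold, 2 were lower (5.88%, against 7.53% of such genes) and 4 higher (11.8%, against 17.0%). The lower ones were *Pgk1* and *Slc16a1*. The higher ones were *Ldhb*, *Eno2*, *Pgd* and *Pdk2*. Of the 17 genes called lower in the count libraries, 12 were lower in this pair, and of the 6 called higher, 3 were higher. The shares over all called genes were 58.2% for the lower ones and 74.4% for the higher ones. The 15 of 23 called genes that kept their direction (65.2%) compare with 64.9% found over 7824 called genes.

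Genes next to the 35 in the pathway were listed by function, and each list's shares are to be read against the 32.3% lower and 31.5% higher of all genes tested, which are 26.4% and 38.0% with library totals and 28.5% and 35.8% with upper-quartile scaling. Directions in replicate 1, which has no error, are counted over called genes with at least 1 FPKM in either library, and are to be read against the 58.2% of lower and 74.4% of higher genes that kept their direction overall. Among other isoforms of the same steps, 15 had at least 10 counts in every library, of which 4 fell and 6 rose with that filter (26.7% lower and 40% higher, against 33.3% and 32.5%). The lysosomal transporter gene *Slc2a6* fell (47.8 and 47.3 CPM with DMSO and 16.1 and 19.9 CPM with MAPK13-IN-1), as did the ADP-dependent glucokinase *Adpgk* (32.0 and 31.4 CPM with DMSO and 15.9 and 15.9 CPM with MAPK13-IN-1). *Slc2a9*, a urate transporter, rose from 8.05 to 19.6 CPM (group means, n = 2), and the muscle mutase *Pgam2* and *Eno4* rose from lower levels. In replicate 1, 0 of 3 lower isoforms were lower, with *Slc2a6* at 10.1 FPKM in DMSO, 36.6 FPKM in MAPK13-IN-1 and *Adpgk* at 12.8 FPKM in DMSO, 16.9 FPKM in MAPK13-IN-1, and 3 of 3 higher ones were higher, with *Slc2a9* at 1.99 FPKM in DMSO, 4.18 FPKM in MAPK13-IN-1 and *Pgam2* at 2.19 FPKM in DMSO, 5.66 FPKM in MAPK13-IN-1. Of 29 side-branch genes, 8 fell and 12 rose (27.6% lower and 41.4% higher), or 6 and 14 with library totals. The falls were led by *Gnpnat1*, of hexosamine synthesis, with 72.1 and 67.7 CPM with DMSO and 15.8 and 18.3 CPM with MAPK13-IN-1, and by the galactokinase *Galk1*, with 158 and 151 CPM with DMSO and 31.4 and 43.7 CPM with MAPK13-IN-1. *Gfpt1*, the first and rate-limiting hexosamine enzyme, rose (118 and 117 CPM with DMSO and 204 and 199.6 CPM with MAPK13-IN-1), as did *Pmm1* and *Pgm2l1*, phosphomutases, by log2 fold changes of 1.00 and 1.33. Of the side-branch genes 5 of 8 lower ones were lower in replicate 1 and 9 of 10 higher ones higher. Of 7 genes that reverse or brake glycolysis and had at least 10 counts in every library, 6 fell and 1 rose with that filter (85.7% lower and 14.3% higher, against 33.3% and 32.5%). *Pck2*, the mitochondrial phosphoenolpyruvate carboxykinase, fell (177 and 178 CPM with DMSO and 58.9 and 66.9 CPM with MAPK13-IN-1), and the pyruvate carboxylase *Pcx* fell (29.9 and 27.5 CPM with DMSO and 7.75 and 8.74 CPM with MAPK13-IN-1). *G6pc3*, a glucose 6-phosphatase, *Arrdc4*, an arrestin of the *Txnip* family, and *Tigar*, a fructose bisphosphatase, also fell, with log2 fold changes of −1.12, −0.57 and −0.51. *Txnip*, which lowers glucose uptake, measured 432 and 431 CPM with DMSO and 504 and 487 CPM with MAPK13-IN-1 and rose (log2 fold change 0.20 ± 0.050 (SE), edgeR adjusted p = 0.00496), a call lost without either DMSO library (edgeR adjusted p of 0.0820 without replicate 2 and 0.0882 without replicate 3). In replicate 1, 3 of 6 lower genes of this list were lower, *Pck2* at 36.1 FPKM in DMSO, 8.58 FPKM in MAPK13-IN-1, *G6pc3* at 18.5 FPKM in DMSO, 11.9 FPKM in MAPK13-IN-1 and *Pcx* at 4.10 FPKM in DMSO, 3.83 FPKM in MAPK13-IN-1, while *Tigar* was at 4.74 FPKM in DMSO, 7.35 FPKM in MAPK13-IN-1 and *Arrdc4* nearly equal, at 6.22 FPKM in DMSO, 6.26 FPKM in MAPK13-IN-1. The 1 higher gene, *Txnip*, was higher there, at 54.8 FPKM in DMSO, 70.8 FPKM in MAPK13-IN-1.

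Of 10 neighbours of the pentose phosphate pathway, 6 fell and 2 rose (60% lower and 20% higher, against 32.3% and 31.5% overall). With library totals 4 fell and 3 rose (26.4% and 38.0% of all genes). DESeq2, which tested 11 of the neighbours, called 5 lower and 1 higher (18.1% and 17.0% of all genes). Without DMSO replicate 3 fewer neighbours were called in both directions, as were smaller shares of all genes. *Prps1* makes phosphoribosyl pyrophosphate from ribose 5-phosphate and fell (70.2 and 68.8 CPM with DMSO and 28.0 and 31.3 CPM with MAPK13-IN-1), while its paralogue *Prps2* rose (50.8 and 48.5 CPM with DMSO and 67.5 and 72.7 CPM with MAPK13-IN-1). *Nadk*, the cytosolic NAD kinase that supplies NADP, fell (131 and 131 CPM with DMSO and 73.7 and 73.7 CPM with MAPK13-IN-1), and *Prpsap2* and *Rbks* fell, with log2 fold changes of −0.98 and −1.25. Of 10 genes of pyruvate entry to mitochondria, 6 fell and 1 rose (60% lower and 10% higher), or 4 and 1 with library totals and with upper-quartile scaling. The 1 that rose was *Pdp2*, a phosphatase that opposes the pyruvate dehydrogenase kinases, with 19.0 and 17.1 CPM with DMSO and 39.0 and 36.8 CPM with MAPK13-IN-1. *Pdhb*, *Dld*, *Pdpr* and *Pdp1* fell, with log2 fold changes of −0.36, −0.43, −0.48 and −0.69. In replicate 1, 2 of 6 lower neighbours were lower (*Prpsap2* and *Rbks*) and 2 of 2 higher ones higher, *Prps2* among them, whereas *Prps1* and *Nadk* were slightly higher with the inhibitor, *Nadk* at 35.9 FPKM in DMSO, 37.2 FPKM in MAPK13-IN-1. Of the genes of pyruvate entry, 4 of 6 lower ones were lower there, with *Dld* at 46.0 FPKM in DMSO, 35.9 FPKM in MAPK13-IN-1 and *Pdhb* at 57.5 FPKM in DMSO, 52.5 FPKM in MAPK13-IN-1, and *Pdp2* was higher, at 2.66 FPKM in DMSO, 3.29 FPKM in MAPK13-IN-1, while *Pdpr*, at 7.87 FPKM in DMSO, 8.43 FPKM in MAPK13-IN-1, and *Pdp1*, at 2.79 FPKM in DMSO, 3.41 FPKM in MAPK13-IN-1, were not lower.

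Of 20 hypoxia-inducible genes outside glycolysis, 9 fell and 8 rose (45% lower and 40% higher, against 32.3% and 31.5% overall). *Adm*, the secreted peptide adrenomedullin, rose with the smallest p of the list (from 7.93 ± 2.17 to 50.9 ± 3.34 CPM, mean ± SD, n = 2), and *Ak4* and *Ndrg1* rose by 0.78 and 0.64 on the log2 scale. *Ero1a*, an oxidase of the endoplasmic reticulum, fell (1354 and 1276 CPM with DMSO and 780.5 and 822 CPM with MAPK13-IN-1), and *Higd1a* fell (log2 fold change −0.78). In replicate 1, 3 of 9 lower genes of this list were lower and 4 of 8 higher ones higher. Of the 5 named, *Adm*, at 0.338 FPKM in DMSO, 6.74 FPKM in MAPK13-IN-1, *Ndrg1*, at 9.71 FPKM in DMSO, 31.5 FPKM in MAPK13-IN-1, *Ero1a*, at 53.2 FPKM in DMSO, 31.4 FPKM in MAPK13-IN-1, and *Higd1a*, at 27.9 FPKM in DMSO, 23.0 FPKM in MAPK13-IN-1, kept their direction, and *Ak4*, at 1.42 FPKM with DMSO, was lower with the inhibitor. Of 25 genes listed as regulators of glycolytic genes, 12 fell and 6 rose (48% lower and 24% higher), or 10 rose with upper-quartile scaling or library totals. These counts include *Mapk13*, which fell, and *Tcf7*, which rose, and whether either regulates glycolytic genes was not tested. *Hif1a*, the oxygen-regulated factor that drives glycolytic genes, measured 370.2 and 357 CPM with DMSO and 268 and 272 CPM with MAPK13-IN-1 and fell (log2 fold change −0.43 ± 0.052 (SE), edgeR adjusted p = 4.25e-05). *Myc*, which drives the metabolic growth of activated T cells, measured 265 and 295 CPM with DMSO and 132 and 147 CPM with MAPK13-IN-1 and fell (log2 fold change −1.0 ± 0.072 (SE), edgeR adjusted p = 1.19e-06). Of the regulators 7 of 11 lower ones were lower in replicate 1 and 4 of 6 higher ones higher. In that pair *Myc* was at 55.0 FPKM in DMSO, 73.7 FPKM in MAPK13-IN-1 and *Hif1a* at 177 FPKM in DMSO, 140.5 FPKM in MAPK13-IN-1. *Mtor* and *Irf4* fell, with log2 fold changes of −1.09 and −0.65, and *Mlxip* and *Vhl*, which encodes the ubiquitin ligase subunit that targets HIF1A for degradation, rose by 0.72 and 1.04. *Tcf7*, which encodes the T cell factor TCF1, measured 158 and 164 CPM with DMSO and 179.8 and 215 CPM with MAPK13-IN-1 and rose (log2 fold change 0.29 ± 0.079 (SE), edgeR adjusted p = 0.00855), with a log2 fold change of 0.15 without MAPK13-IN-1 replicate 3. *Mapk13* itself was scarce, with 79 and 74 counts with DMSO and 21 and 51 counts with MAPK13-IN-1, and fell (log2 fold change −1.47 ± 0.36 (SE), edgeR adjusted p = 0.00490), with log2 fold changes of −0.94 without MAPK13-IN-1 replicate 2 and −2.29 without MAPK13-IN-1 replicate 3. In replicate 1 it was at 0.191 FPKM in DMSO, 3.28 FPKM in MAPK13-IN-1, the opposite direction.

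The promoters of the 35 genes were searched for 3 sets of letters, each on both strands of a 300-base window from 250 bases before to 50 bases after the start. Sequences are from RefSeq, build GRCm38.p6, which held 49 promoters for 34 of the 35 genes, all but *Slc2a3*. The hypoxia core ACGTG or GCGTG occurred in 38 of the 49 (77.6%) and in 43.8% of 32817 promoters of all genes. By promoter it was found in 19 of 23 of genes that fell (82.6%), 6 of 9 of genes that rose (66.7%) and 13 of 17 of genes not called (76.5%). By gene the order differed, with the core in at least 1 promoter of 6 of 6 genes that rose, 15 of 17 that fell and 9 of 11 not called. The core holds a CG, and the promoters of the 35 genes had a median of 20 CG pairs against 7 over all promoters, so base composition moved with the match. The E-box CACGTG, which contains the core, occurred in 5 of 49 (10.2%, against 7.15% overall), and the TCF and LEF letters ATCAAAG or TTCAAAG in 2 of 49 (4.08%, against 8.65%). A match describes letters only. Printed are the 250 bases before the start for 5 genes chosen after their motif counts were seen, as examples that carry the core, which is in capitals on either strand. *Ldha* and *Pdk1* have 2 promoters each, of which the one with more cores is shown, and the other promoter of *Pdk1* has none. *Tpi1* and *Eno2*, which fell, had no core in their 300 bases. They lie at chr11:120948817-120949066 on the plus strand (*Slc16a3*), chr7:46845554-46845803 on the plus strand (*Ldha*), chrX:106186850-106187099 on the plus strand (*Pgk1*), chr2:71872974-71873223 on the plus strand (*Pdk1*) and chr6:142507958-142508207 on the minus strand (*Ldhb*). The first 3 genes fell and the last 2 rose.
Slc16a3: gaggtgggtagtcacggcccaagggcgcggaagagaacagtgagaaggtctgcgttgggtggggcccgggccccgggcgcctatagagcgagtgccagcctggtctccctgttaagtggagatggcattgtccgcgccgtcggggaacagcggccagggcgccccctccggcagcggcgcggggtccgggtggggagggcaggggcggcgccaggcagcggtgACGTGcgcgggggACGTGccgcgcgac
Ldha: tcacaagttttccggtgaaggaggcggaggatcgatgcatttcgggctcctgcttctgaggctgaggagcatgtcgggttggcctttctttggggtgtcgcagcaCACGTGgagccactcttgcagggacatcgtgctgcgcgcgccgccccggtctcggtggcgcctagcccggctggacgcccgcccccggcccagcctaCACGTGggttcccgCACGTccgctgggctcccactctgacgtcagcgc
Pgk1: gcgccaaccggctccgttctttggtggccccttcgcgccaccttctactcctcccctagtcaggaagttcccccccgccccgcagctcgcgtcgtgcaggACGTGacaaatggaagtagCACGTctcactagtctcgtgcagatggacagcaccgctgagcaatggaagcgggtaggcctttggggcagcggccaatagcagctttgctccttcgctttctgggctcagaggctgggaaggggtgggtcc
Pdk1: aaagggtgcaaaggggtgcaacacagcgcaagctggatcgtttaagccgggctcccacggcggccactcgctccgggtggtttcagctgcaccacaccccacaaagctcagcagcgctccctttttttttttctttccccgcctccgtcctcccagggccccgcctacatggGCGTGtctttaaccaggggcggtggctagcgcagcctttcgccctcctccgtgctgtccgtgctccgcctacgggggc
Ldhb: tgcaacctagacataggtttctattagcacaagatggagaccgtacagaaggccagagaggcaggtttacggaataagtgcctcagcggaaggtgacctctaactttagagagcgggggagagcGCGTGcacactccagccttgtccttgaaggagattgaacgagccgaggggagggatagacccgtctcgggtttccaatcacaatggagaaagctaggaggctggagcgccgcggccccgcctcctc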

How the data were processed

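The authors deposited counts per gene (each value a count) for replicates 2 and 3 of both groups, and values for the replicate 1 pair that are read as FPKM because they fall with gene length, although the authors do not name the unit. The submitters' processing notes name fastp 0.21.0, HISAT2 2.1.0, StringTie 2.1.5 and DESeq2 1.30.1 for the counts, with build mm10, and FastQC and HISAT2 for replicate 1, with builds GRCm38 and mm10, without saying what each tool did. The counts were filtered with filterByExpr (minimum count 10, minimum total 15), scaled by TMM and tested with the quasi-likelihood method of edgeR 4.0.16 in R 4.3.3, MAPK13-IN-1 against DMSO, 2-sided. Alternatives were RLE, upper-quartile and library-total scaling, no filter, at least 10 counts in every library, DESeq2 1.42.0, limma-voom (limma 3.58.1), an exact test with the biological coefficient of variation set at 0.4, a replicate block and leaving out each library, where the group with 1 library left is assumed to vary like the other. For listed genes outside the 35 these alternatives were chosen after seeing the data. The replicate 1 pair was compared as log2(FPKM + 1), with a 1.5-fold rule. Levels per length divide CPM by the median length of a gene's protein-coding transcripts in the GENCODE M21 basic annotation. The 35 genes and all lists were chosen with earlier results of these data known. Values in every library are given for entry and branch-point genes and for any other of the 35 among the 10 largest changes called. From each other list at most 5 genes with the smallest p are named, and *Mapk13*, *Tcf7*, *Hif1a*, *Myc*, *Txnip* and *Bsg* always. From marker lists the most abundant gene and markers at 0 counts are named. Other genes named by range or direction alone were chosen after their values were seen. Lists in which a gene passed the filter through 1 group alone are counted over genes with at least 10 counts in every library, a choice made after seeing the data. The counts of directions kept in replicate 1 by list were also added after seeing the data.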

Additional observations from a re-analysis of the deposited data

How the results depend on the processing

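The 17 lower and 6 higher calls among the 35 genes were the same in number with RLE scaling, DESeq2 and limma-voom. Of all genes, 31.6% were lower and 32.3% higher with RLE scaling, 32.4% and 31.1% with limma-voom, and 18.1% and 17.0% of 23664 genes with DESeq2. With the biological coefficient of variation set at 0.4, 1243 genes of the whole table were called (464 lower, 779 higher), and of the 35 genes 0 lower and 0 higher (0 at an unadjusted p under 0.05), against 17 lower and 6 higher in both DESeq2 and limma-voom. With library totals 14 of the 35 were lower and 10 higher, 1 passed an absolute log2 fold change over 1, and the table had 4302 genes lower and 6176 higher. Leaving out 1 library moved the numbers of the 35 called lower and called higher both up and down. *Slc16a3* passed that fold change without MAPK13-IN-1 replicate 3 (log2 fold change −1.06). The shares of all genes called moved too, and were smallest without DMSO replicate 3. The median log2 fold change of the 35 was −0.058 with upper-quartile scaling, −0.013 with library totals, −0.093 with at least 10 counts in every library, and −0.21 to −0.13 without 1 library. The replicate block gave 10645 calls, and *Aldoc* was then called higher (0.18, edgeR adjusted p = 0.0139). Deviations of same-numbered replicates had a correlation of 0.0050 across genes, so no shared deviation was seen. With 1 difference per group this cannot settle whether same-numbered libraries were paired.

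These log2 fold changes turned sign, none of them called in either fit. With library totals *Slc2a3* was 0.036, *Pgam1* 0.083, *Pkm* 0.071, *G6pdx* 0.037, *Rpe* 0.061, *Bsg* 0.031 and *Cd4* 0.12. With upper-quartile scaling *Pgam1* was 0.039, *Pkm* 0.026, *Rpe* 0.016 and *Cd4* 0.080. With at least 10 counts in every library *Pgam1* was 0.0031 and *Cd4* 0.044, and *Cd4* was 0.013 with RLE scaling and 0.0079 with DESeq2. Without DMSO replicate 2 *Slc2a3* was 0.011 and *Hk3* −0.23, without DMSO replicate 3 *Pfkfb3* was −0.0059, without MAPK13-IN-1 replicate 2 *Pgam1* was 0.058 and *Cd4* 0.041, and without MAPK13-IN-1 replicate 3 *Hk3* was −0.060 and *Gpi1* −0.0042. The cause was not tested. Over all 4 fits without 1 library, *Slc2a3* ran from −0.20 to 0.011, *Hk3* from −0.23 to 0.28, *Pfkfb3* from −0.0059 to 0.14, *Pgam1* from −0.16 to 0.058 and *Cd4* from −0.050 to 0.041. *Cd79b* was not called without either DMSO library, nor *Cd8b1* with DESeq2 (adjusted p = 0.0510). With 2 libraries a group, small changes at low counts are the least certain.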
